A study of Mus musculus with 4 samples.

Results

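The genes described here encode the factors that start, extend and end protein chains on the ribosome, together with the aminoacyl-tRNA synthetases that load tRNAs with amino acids. They were chosen by symbol, from names beginning Eif1 to Eif6 (without the Eif2ak kinases), Eef1 or Eef2, the termination factors Etf1 and Gspt1, and the synthetase names ending in "ars", "ars1" or "ars2" with Farsa, Farsb and Eprs. The rule took 96 of the 9546 gene symbols in the deposited rlog table, of which 46 were initiation factor genes, 13 elongation and termination genes, and 37 synthetase genes. A further 14 symbols of the count table matched the same names but did not reach the filter of 10 counts over the libraries, among them Eef1a2 and Eif4e1b with no count in any library and Eif5a2 with 2, 3, 2 and 1 counts, and they were not tested.

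Splenic CD4+ T cells were sorted from Tg4 Nr4a3-Tocky Il10-EGFP mice that had been given 4 mg/kg [4Y]-MBP peptide under the skin 24 h before. Tg4 is a transgenic T cell receptor specific for a myelin basic protein peptide, and [4Y]-MBP is an analog of that peptide with tyrosine at position 4. Both sorted populations carried the same transgenes, had received the same peptide and were positive for Nr4a3-Timer, a fluorescent reporter of recent T cell receptor signaling. They differed in the Il10-EGFP reporter, so Il10-EGFP+ cells (2 libraries) were compared with Il10-EGFP- cells (2 libraries). Values by library are given below with the Il10-EGFP- replicates 1 and 2 first, against the Il10-EGFP+ replicates 1 and 2. No unimmunized cells and no Timer-negative cells were part of the comparison. The labels give no age, the methods state that mice of both sexes were used, and no source used here says whether libraries with the same replicate number came from 1 mouse.

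Translation begins when the eIF4F complex takes hold of the mRNA cap and the eIF2 complex brings the initiator tRNA to the small ribosomal subunit, with eIF3 as the scaffold. The elongation factors eEF1A and eEF2 then deliver charged tRNAs and move the ribosome along, and eRF1 with eRF3 releases the finished chain. T cells that have met antigen enlarge and raise their rate of protein synthesis, so this machinery is among the best-known targets of T cell receptor, mTOR and Myc signaling.

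Libraries held between 644679 and 730330 counts over all genes, made from 5 ng of RNA with 22 cycles of PCR, and 9608 genes reached a sum of 10 counts. The counts come from a 3′ kit that samples each transcript near its end, so a level in CPM (counts scaled to the library's total by the TMM method) was not divided by gene length. Il10 itself had 0 and 0 counts against 29 and 41, in the direction of the sort labels. The 8 T cell markers checked, Cd3e and Cd4 among them, all passed the filter and summed to 1772 to 1802 CPM in Il10-EGFP- libraries and 2053 to 2307 CPM in Il10-EGFP+ libraries. Markers of other cells also moved with the populations. The 8 B cell markers summed to 113 and 153 CPM in Il10-EGFP- and to 404 and 480.4 CPM in Il10-EGFP+ libraries, and the 8 myeloid markers to 107 and 134 CPM against 358 and 190.4 CPM. No B cell or myeloid marker was at 0 in every library, the 6 CD8 or NK markers summed to 22.2 to 48.1 CPM with Ncr1 at 0 in all libraries, and the part of these cells in the results below was not tested. Fewer copies per cell and fewer cells with a transcript cannot be told apart in such bulk libraries.

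Across the 96 genes, levels were on balance lower in Il10-EGFP+ cells, by a small amount for most. The fitted log2 fold change of Il10-EGFP+ over Il10-EGFP- was below 0 for 73 of the 96, with a median of -0.19, whereas over all 9608 genes the median was 0.00. By the quasi-likelihood test of edgeR, with p-values adjusted over all genes by the Benjamini-Hochberg method, 8 members were lower (Eef1e1, Eif3j1, Farsa, Eif4e, Eif4b, Kars, Yars2 and Mars2) and 1 was higher (Lars2) at an adjusted p under 0.05. In all, 9 of the 96 were called (9.38%), against 4.09% of all genes tested. Of members averaging 50 counts or more, 7 of 60 were called (11.7%), against 9.39% of all such genes. The share called lower was 1.74% of all genes tested and 4.6% of those averaging 50 counts or more, and the share called higher was 2.35%. In 35 members both Il10-EGFP+ libraries lay below both Il10-EGFP- libraries and in 9 both lay above, each ordering being found in 22.3% of all genes tested. Among genes averaging 50 counts or more, where counting error is smaller, 48 of 60 members had a log2 fold change below 0 with a median of -0.17, against a median of -0.02 for all 2609 such genes.

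The size of this shift depended on single libraries. Without Il10-EGFP- replicate 2 the median of the members was -0.11 and 61 of the 96 were below 0, and without Il10-EGFP+ replicate 1 these were -0.13 and 61. Without either of the other libraries the median was -0.22 and -0.20, with 76 and 73 members below 0. The call for Eef1e1 and that for Lars2 were kept in each of these fits with 1 library left out. Eif4b, Kars and Mars2 fell short of the threshold in each of them, while Eif3j1 and Eif4e were lost without Il10-EGFP- replicate 2 or Il10-EGFP+ replicate 1, Yars2 was kept only without Il10-EGFP+ replicate 1, and Farsa only without Il10-EGFP- replicate 2. DESeq2 called only Eef1e1 and Farsa of the 9. The sign of all 9 was the same in every fit.

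**Figure D1:**
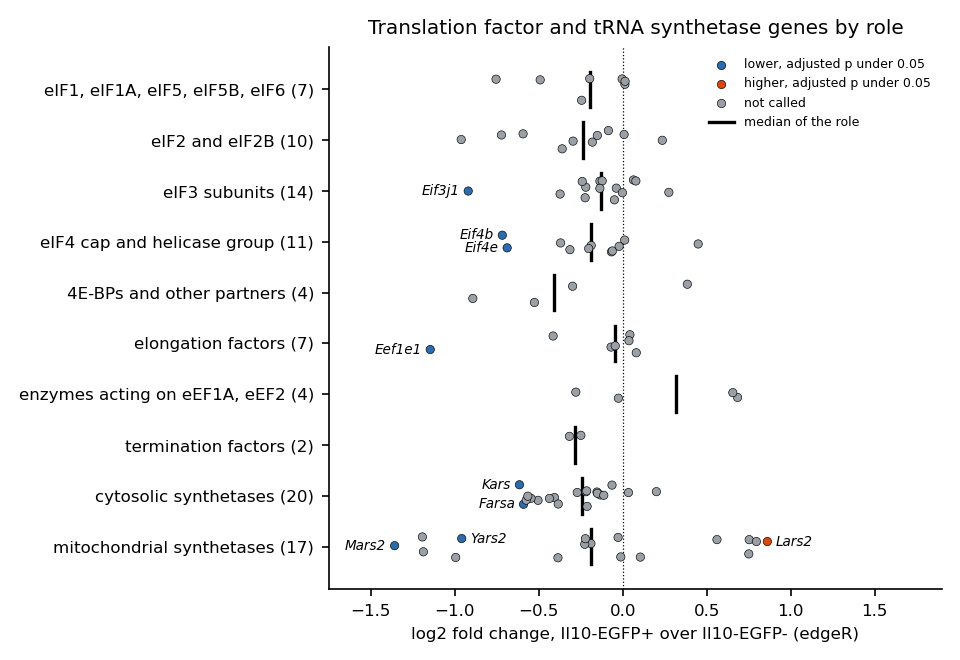
Log2 fold change of the 96 genes (x axis, Il10-EGFP+ over Il10-EGFP-, edgeR) by role (y axis, number of genes in brackets), with 1 point a gene and a black bar at the median of each role. Blue points are the 8 genes called lower and the orange point is Lars2, the 1 gene called higher. The medians of 9 of the 10 roles lie left of 0, and the mitochondrial synthetases spread from -1.36 to 0.86.

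Among initiation factors, 36 of 46 genes had a log2 fold change below 0 (median -0.19), and 3 passed the test, all lower in Il10-EGFP+ cells. Their summed level was 11599 and 12624 CPM against 10383 and 11083 CPM. The totals of the populations did not overlap, with means of 12111 ± 725 and 10733 ± 494 CPM (SD, n = 2 each). With 2 libraries a population, an exact permutation test cannot give a p-value below 0.333 for such a sum, so only the single genes were tested, in the fit across all genes. The summed level cannot stand for all members alike, as Eif2s2, Eif5b and Eif3a, the most abundant initiation factor genes, make up a large part of it.

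The eIF4 group holds the cap-binding and helicase proteins, and 9 of its 11 genes were below 0 (median -0.19), with 7 whose Il10-EGFP+ libraries both lay below both Il10-EGFP- libraries. Eif4e encodes the protein that binds the mRNA cap and is the limiting subunit of eIF4F in many cells. It had 175 and 211 counts against 97 and 127. Its level was 238 and 308 CPM in Il10-EGFP- and 154 and 183 CPM in Il10-EGFP+ cells. The populations did not overlap, and the level was 1.61-fold higher in Il10-EGFP- cells (log2 fold change -0.69, SE 0.18, 95% interval -1.04 to -0.34, edgeR quasi-likelihood adjusted p = 0.0121). Without Il10-EGFP- replicate 2, the library with the highest level, it was -0.49 (adjusted p = 0.260). The other subunits of eIF4F, the scaffold Eif4g1 (-0.20, SE 0.14) and the helicase Eif4a1 (-0.19, SE 0.21), also had both Il10-EGFP+ libraries below both Il10-EGFP- libraries, but their intervals included 0 and neither passed the test (adjusted p = 0.534 and 0.759, edgeR). Part of the Eif4e end, 322 of 1538 runs of 50 bases, is shared with the processed pseudogene Gm7327, which had at most 1 count in any library.

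Eif4e lies on the forward strand of chromosome 3 in GRCm38, at chr3:138526179-138559696. RefSeq gives it 2 promoter windows of 300 bases (250 before the transcript start and 50 after). The window at chr3:138527018-138527317, from RefSeq on GRCm38.p6, holds the letters CACGTG at 2 places, printed in capitals. CACGTG is the E-box core that Myc with Max and other basic helix-loop-helix proteins are known to bind, and the Eif4e promoter is a textbook case of it.
Eif4e promoter: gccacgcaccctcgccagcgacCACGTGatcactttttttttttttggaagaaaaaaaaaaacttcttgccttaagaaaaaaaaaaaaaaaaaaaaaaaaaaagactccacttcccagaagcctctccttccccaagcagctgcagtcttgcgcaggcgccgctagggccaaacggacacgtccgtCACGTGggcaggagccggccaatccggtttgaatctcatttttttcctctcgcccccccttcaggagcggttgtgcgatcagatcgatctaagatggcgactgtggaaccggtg

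The windows of the other eIF4F subunits hold the same letters, shown here on the gene's strand with CACGTG in capitals so that the flanking bases can be compared. Eif4g1 has 2 matches, at chr16:20672661-20672690 and chr16:20672730-20672759, and Eif4a1 has 1 at chr11:69672595-69672624 on the reverse strand.
Eif4g1, first match: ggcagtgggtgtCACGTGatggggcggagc
Eif4g1, the other match: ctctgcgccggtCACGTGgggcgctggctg
Eif4a1: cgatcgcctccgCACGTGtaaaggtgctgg

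Eif4b encodes a cofactor that stimulates the eIF4A helicase. It had 143 and 141 counts against 73 and 88, or 194 and 206 CPM against 116 and 127 CPM. The libraries of each population lay close together and far from the other, and the log2 fold change was -0.72 (SE 0.19, 95% interval -1.09 to -0.34, edgeR adjusted p = 0.0158). Eif4h, which encodes a smaller cofactor of the same helicase, showed no detectable difference, with 305 ± 31.5 CPM in Il10-EGFP- and 299 ± 44.3 CPM in Il10-EGFP+ cells (SD, n = 2 each, log2 fold change -0.02, 95% interval -0.34 to 0.29). Eif4a3, an RNA helicase of the exon junction complex despite its name, had 426 and 359 counts against 295 and 268 (log2 fold change -0.37, adjusted p = 0.142). Eif4g2, which encodes a relative of eIF4G without a cap-binding protein site, had 471 and 451 against 416 and 405 counts (log2 fold change -0.06), and its CPM values overlapped. Eif4e3, an alternative cap-binding protein, went the other way with 15 and 14 against 16 and 21 counts (log2 fold change 0.45, SE 0.43), too few to tell the populations apart.

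The eIF4E-binding proteins hold eIF4E away from eIF4G until mTOR phosphorylates them. Eif4ebp2 had 55 and 32 counts against 62 and 43 (log2 fold change 0.38, 95% interval -0.17 to 0.94). Eif4ebp1 was near the limit of detection with 3, 11, 2 and 5 counts in the same order of libraries, and its interval ran from -2.57 to 0.78. The populations overlapped for both genes and neither passed the test (edgeR adjusted p = 0.560 and 0.691). Eif1ad, placed with these partners by name only, had 77 and 67 against 49 and 60 counts and did not pass either (adjusted p = 0.602).

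The eIF3 complex is the scaffold of the scanning ribosome, and 11 of its 14 genes were below 0 with a median of -0.13 and 1 call. The abundant core subunits gave no call. Eif3a had 645 and 750 counts against 489 and 633 (log2 fold change -0.22, adjusted p = 0.449), and Eif3c had 524 and 594 against 425 and 527 (log2 fold change -0.14, adjusted p = 0.712). In both the CPM values of the populations overlapped. The gene called was Eif3j1, which encodes a loosely bound subunit that sits near the decoding site. It had 119 and 146 counts against 52 and 79, or 162 and 213 CPM against 82.4 and 114 CPM. Every Il10-EGFP+ library was below every Il10-EGFP- library, and the log2 fold change was -0.92 (SE 0.21, 95% interval -1.33 to -0.51, edgeR adjusted p = 0.00304). Its near copy Eif3j2 had 12, 17, 14 and 13 counts (log2 fold change 0.00, SE 0.47). Of the 451 runs of 50 bases in the Eif3j2 end, 401 also occur in Eif3j1, so reads of the pair may have been split or set aside in counting. Eif3j1 lies at chr2:122028546-122056598 on the forward strand, and its exons share 1107 bases with Spg11 on the opposite strand, which had 10, 5, 10 and 6 counts.

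The genes of eIF2, which carries the initiator tRNA, and of eIF2B, which reloads eIF2 with GTP, gave 8 of 10 values below 0 (median -0.24) but 0 calls by edgeR, with 3 of the 10 at an unadjusted p under 0.05 and 0 calls by DESeq2. Eif2s1, which encodes the subunit phosphorylated in the integrated stress response, had 112 and 137 counts against 105 and 104 (log2 fold change -0.15, 95% interval -0.53 to 0.23). Eif2s2, the most abundant initiation factor gene, had 958 and 1051 against 786 and 986 counts (log2 fold change -0.09, SE 0.12). Eif2b3, for a subunit of the catalytic part (44 and 34 against 22 and 15 counts, log2 fold change -0.96, adjusted p = 0.105), and Eif2b4, for a subunit of the regulatory part (103 and 101 against 56 and 70 counts, log2 fold change -0.59, adjusted p = 0.0992) had no overlap between populations. Eif2b1 (0.01), Eif2b2 (0.24) and Eif2b5 (-0.18) had intervals that included 0, and whether the eIF2B subunits differ from each other was not tested. Eif2d, which encodes a factor for non-canonical initiation and recycling, had 30 and 34 against 20 and 16 counts (log2 fold change -0.72, adjusted p = 0.323).

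Of the 7 genes for scanning and start codon recognition, 5 were below 0 (median -0.20), with 0 calls by edgeR and 2 at an unadjusted p under 0.05, and 0 calls by DESeq2. Eif5b, which encodes the GTPase that joins the ribosomal subunits, had 737 and 780 counts against 533 and 706 (log2 fold change -0.20, adjusted p = 0.506). Eif5, whose product makes eIF2 hydrolyse its GTP, was at 431 CPM in Il10-EGFP- and 435 CPM in Il10-EGFP+ cells (log2 fold change 0.01, SE 0.14). Eif6, which encodes a factor that keeps the large subunit from joining too early, had 60 and 63 counts against 28 and 40 (log2 fold change -0.75, SE 0.27, adjusted p = 0.102). The populations did not overlap for Eif6, but it was called in none of 14 alternative fits.

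**Figure D2:**
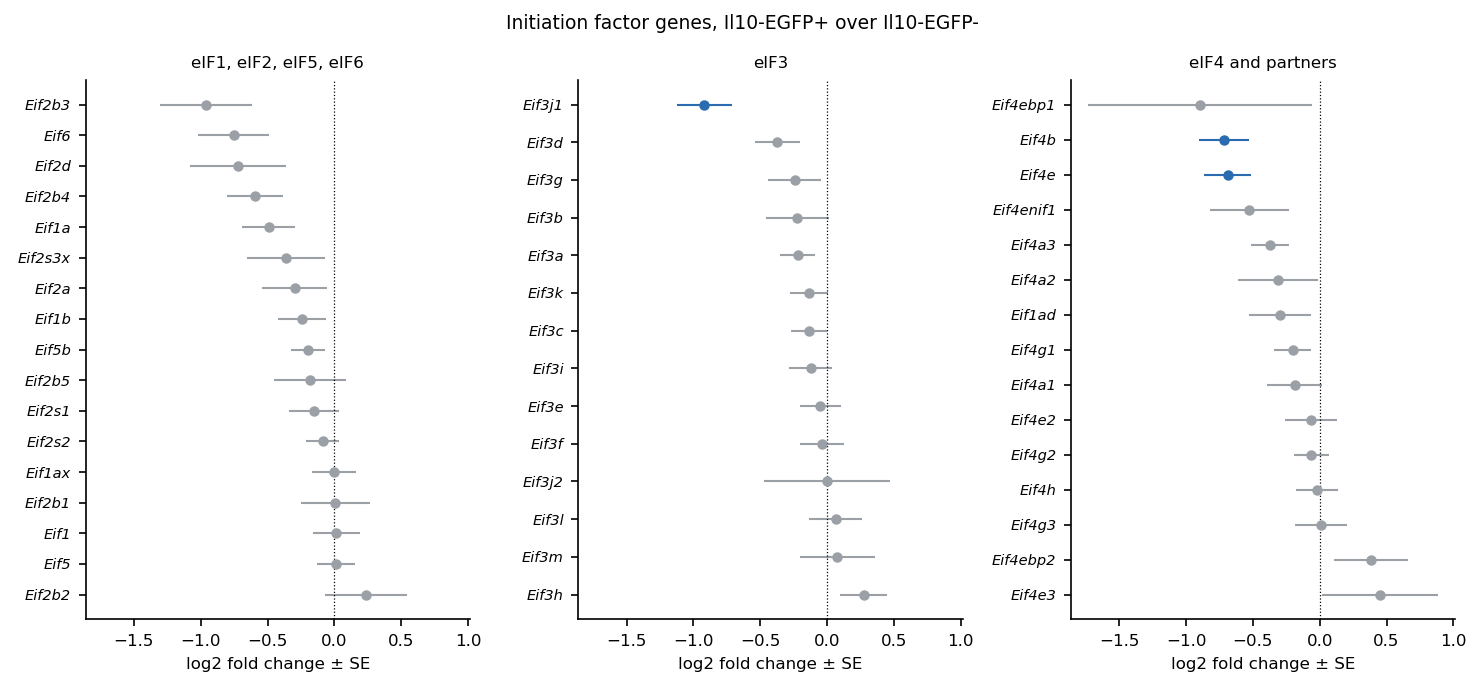
Log2 fold change with its standard error (x axis, Il10-EGFP+ over Il10-EGFP-) of the 46 initiation factor genes (y axis), in 3 panels by complex, with genes past the threshold in blue. Eif3j1, Eif4b and Eif4e lie to the left of 0 by more than 3 standard errors, while most other genes lie within 2 standard errors of it.

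Among the elongation and termination genes, no difference was detected in the most abundant ones. Their median log2 fold change was -0.05, with 8 of 13 genes below 0 and 1 call. Eef2, which encodes the GTPase that translocates the ribosome, was the most abundant gene of all 96, with 1403 and 1315 counts against 1261 and 1416. Its log2 fold change was 0.08 (SE 0.12, 95% interval -0.15 to 0.31), and its CPM values in both Il10-EGFP+ libraries were above those in both Il10-EGFP- libraries. Eef1a1, which encodes the carrier of charged tRNAs, was at 821 CPM in Il10-EGFP- and 781 CPM in Il10-EGFP+ cells (log2 fold change -0.07, 95% interval -0.33 to 0.19). The exchange factor genes Eef1b2 (-0.05, SE 0.12), Eef1d (0.04, SE 0.15) and Eef1g (0.04, SE 0.14) were as close to 0, and the CPM values of the populations overlapped for all 3. Reads of Eef1a1 and Eef1g may be shared with processed pseudogenes, since 647 of 1960 and 581 of 1646 runs of 50 bases at their ends also occur in Gm13456 and Gm4366, which had at most 2 counts in any library.

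Eef1e1 (chr13:38644207-38659058, reverse strand) bears an elongation factor name but encodes AIMP3, a small scaffold protein of the multisynthetase complex that also acts in the DNA damage response. It had 96 and 92 counts against 37 and 42. Its level was 130.3 and 134 CPM against 58.6 and 60.6 CPM. The libraries of each population differed by only a few CPM and the level was 2.21-fold higher in Il10-EGFP- cells, with a log2 fold change of -1.15 (SE 0.23, 95% interval -1.61 to -0.68, edgeR adjusted p = 0.000894). Among the 96 genes it had the lowest adjusted p of those that fell, and it was called in all 14 alternative fits. In the weakest of these its adjusted p was only just under the threshold of 0.05.

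Eif5a, named as an initiation factor but known to act in elongation at difficult peptide bonds, had 646 and 514 counts against 403 and 404. The populations did not overlap (877 and 750.0 CPM against 639 and 583 CPM), and the log2 fold change of -0.41 (SE 0.13) fell just short of the threshold (edgeR adjusted p = 0.0641). It passed in 4 of the other fits, with limma voom (0.0281), with library size scaling (0.0408), with a replicate block (0.00779) and without Il10-EGFP- replicate 2 (0.0371). Its hypusine modification, on which its activity depends, needs the enzymes Dhps and Dohh. Dohh had a log2 fold change of -0.82 (SE 0.27, adjusted p = 0.0709) and Dhps one of 0.30 (SE 0.38, adjusted p = 0.796), so neither passed.

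The termination factor genes were both below 0. Etf1, which encodes eRF1, had 392 and 321 counts against 266 and 265 (log2 fold change -0.32, adjusted p = 0.253), and Gspt1, which encodes eRF3, had 224 and 139 against 136 and 147 (log2 fold change -0.25, adjusted p = 0.550). The enzymes that act on elongation factors were too scarce for a comparison. Eef2k, the kinase that inhibits eEF2, had 8, 2, 7 and 2 counts with an interval from -1.74 to 1.68, Eef1akmt1 had 11, 5, 11 and 13 counts (log2 fold change 0.68, SE 0.56), and Eef2kmt 12, 27, 16 and 14 counts (-0.28, SE 0.44).

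**Figure D3:**
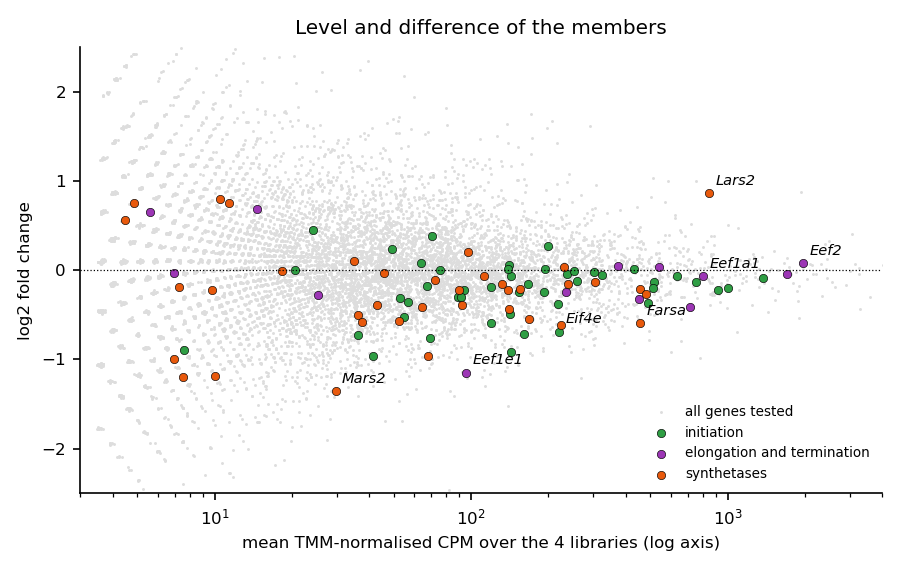
Mean level over the 4 libraries (x axis, TMM-normalised CPM, log axis) against log2 fold change (y axis) for all 9608 genes tested in grey and for the initiation (green), elongation and termination (purple) and synthetase genes (orange). Eef2, the most abundant member, lies near 0 at 0.08, while Lars2 lies at 0.86. Grey genes beyond the axis limits are not drawn.

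The cytosolic synthetases lay almost all to one side. The log2 fold change was below 0 for 18 of 20 (median -0.25), and in 10 of the 20 both Il10-EGFP+ libraries lay below both Il10-EGFP- libraries. Their summed level was 3988 and 4126 CPM in Il10-EGFP- and 3118 and 3516 CPM in Il10-EGFP+ libraries, or 4057 ± 97.8 against 3317 ± 281 CPM (mean ± SD). Only Gars (0.03, SE 0.18) and Qars (0.20, SE 0.23) were above 0, and 2 genes passed the test. The other 18 did not pass it.

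Farsa (chr8:84856989-84869257, forward strand) encodes the catalytic subunit of phenylalanyl-tRNA synthetase. It had 414 and 365 counts against 232 and 249, or 562 and 533 CPM against 368 and 359 CPM. The populations were well apart and the level was 1.51-fold higher in Il10-EGFP- cells (log2 fold change -0.59, SE 0.14, 95% interval -0.88 to -0.31, edgeR adjusted p = 0.00688). Farsb, which encodes the partner subunit of the same enzyme, had 172 and 185 against 148 and 151 counts, with a log2 fold change of -0.15 (95% interval -0.49 to 0.18, adjusted p = 0.75). The difference between the subunits was not tested.

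Kars (chr8:111993443-112011323, reverse strand) encodes lysyl-tRNA synthetase. It had 198 and 189 counts against 117 and 118, or 269 and 276 CPM against 185 and 170.2 CPM. Again the populations did not overlap, and the log2 fold change was -0.62 (SE 0.17, 95% interval -0.95 to -0.28, edgeR adjusted p = 0.0226). Rars, for arginyl-tRNA synthetase, was the nearest gene short of the threshold among the cytosolic synthetases, with 153 and 130 against 91 and 89 counts (log2 fold change -0.55, adjusted p = 0.0838). The most abundant cytosolic synthetase gene was Nars, with 338 and 405 against 246 and 331 counts (log2 fold change -0.27, adjusted p = 0.382). Eprs, whose product joins glutamyl- and prolyl-tRNA synthetase in 1 chain, had 364 and 333 against 251 and 310 counts (log2 fold change -0.21, adjusted p = 0.518).

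Several cytosolic synthetases are held together with the scaffold proteins AIMP1, AIMP2 and AIMP3 in the multisynthetase complex. Of its 11 genes, listed after their values had been seen, 9 were below 0 (median -0.24) and 2 were called, Kars and Eef1e1. In 6 genes both Il10-EGFP+ libraries lay below both Il10-EGFP- libraries and in 2 both lay above, where each ordering was found in 22.3% of all genes tested. Of the 3 scaffold genes only Eef1e1 was called. Aimp1 had 200 and 216 against 129 and 202 counts (log2 fold change -0.24, SE 0.17), Aimp2 had 30 and 27 against 27 and 44 counts (0.41, SE 0.32), and Eef1e1 for AIMP3 fell by 1.15 on the log2 scale. Whether these 3 differ from each other was not tested.

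Several cytosolic synthetase genes are textbook targets of ATF4, a transcription factor of the amino acid response that binds composite C/EBP-ATF elements. The letters TGATGNAA, searched on both strands, occurred in the promoter windows of 5 of the 28 synthetase genes that have one (17.9%), against 2.62% of the 7374 tested genes with a window and 4.51% of all 27025 genes in the table. The matches of 4 of them, printed on the gene's strand with the matched bases in capitals, read as follows from RefSeq on GRCm38.p6, where all but that of Yars match on the opposite strand. They lie at chr6:55037960-55037989 for Gars, chr13:49682126-49682155 for Iars, chr15:11399655-11399684 for Tars (a reverse strand gene) and chr4:129189895-129189924 for Yars.
Gars: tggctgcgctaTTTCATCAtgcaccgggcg
Iars: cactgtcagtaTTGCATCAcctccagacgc
Tars: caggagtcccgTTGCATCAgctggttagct
Yars: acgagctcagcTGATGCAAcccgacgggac

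In those 4 genes the log2 fold changes were 0.03 (Gars), -0.44 (Iars), -0.22 (Tars) and -0.57 (Yars), and none was called (edgeR adjusted p from 0.259 to 0.971). With Eef2k and Eif2s3x, 7 members held the letters, at a median of -0.22 on the log2 scale, and the 67 members with a window and without them had a median of -0.20. Atf4 itself had a log2 fold change of -0.27 (SE 0.14, adjusted p = 0.371). CACGTG occurred in windows of 16 of the 74 members that have one (21.6%), against 12.5% of tested genes and 8.09% of all genes in the table. The members with CACGTG had a median of -0.20 with 15 of 16 below 0 and 1 call, Eif4e, and the 58 without it a median of -0.22 with 42 below 0 and 8 calls. A match of letters is no evidence that a factor binds there in these cells, and 22 members had no window in the table. The windows used for Hars2 and Eif3j2 lie on another chromosome than these genes and held neither set of letters.

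The mitochondrial synthetases, which charge tRNAs inside mitochondria and are encoded in the nucleus, were split. Of 17 genes 11 were below 0 (median -0.19), 2 were called lower and 1 was called higher. The last, Lars2 for mitochondrial leucyl-tRNA synthetase, set their total. With it they summed to 899 and 1210 CPM in Il10-EGFP- and 1390 and 1497 CPM in Il10-EGFP+ libraries, and without it the other 16 summed to 444 and 460 CPM against 374 and 332 CPM. Thus the direction of the sum turned when this gene was left out.

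Lars2 (chr9:123366927-123462666, forward strand) had 335 and 514 counts against 641 and 808. Its level was 455 and 750.0 CPM against 1016 and 1166 CPM. Both Il10-EGFP+ libraries were above both Il10-EGFP- libraries, although the Il10-EGFP- libraries differed from each other by more than the Il10-EGFP+ libraries did (602 ± 209 and 1091 ± 106 CPM, SD). The level was 1.82-fold higher in Il10-EGFP+ cells, with a log2 fold change of 0.86 (SE 0.15, 95% interval 0.57 to 1.15, edgeR adjusted p = 7.73e-05). DESeq2 gave the same fold change but an adjusted p of 0.306, and limma on the rlog values gave 0.0929. Without Il10-EGFP- replicate 1, the library with the lowest level, the log2 fold change was 0.54 (edgeR adjusted p = 0.0313), and without Il10-EGFP- replicate 2 it was 1.27 (6.35e-11). With a mean of 847 CPM over the 4 libraries, Lars2 was far above the next mitochondrial synthetases, Iars2 at 89.5 CPM and Yars2 at 68.2 CPM. Some of its sequence occurs elsewhere in the transcriptome. At least 1 run of 20 bases is shared with 5718 other genes, of which only Gm15564 and AA474408 are described here. Between 566 and 617 bases from its end the transcript shares a run of 52 bases with Gm15564, which had 22, 15, 12 and 26 counts, and between 582 and 723 bases from its end it shares runs of up to 41 bases with AA474408, which had at most 1 count. No run of 20 bases was shared with the mitochondrial ribosomal RNA genes mt-Rnr1 and mt-Rnr2 or with Gm42418. Whether reads of such copies were counted as Lars2 was not tested.

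Yars2, for mitochondrial tyrosyl-tRNA synthetase (chr16:16302965-16309640, forward strand), had 68 and 60 counts against 35 and 26. Its log2 fold change was -0.96 (SE 0.27, 95% interval -1.51 to -0.41, edgeR adjusted p = 0.0298). Mars2, for mitochondrial methionyl-tRNA synthetase (chr1:55237177-55248470, forward strand), had 33 and 28 against 10 and 12 counts. The fold was the largest decrease among the 96 genes, 2.56-fold (log2 fold change -1.36, SE 0.41, 95% interval -2.17 to -0.55, edgeR adjusted p = 0.0405), though it rests on few counts. In both genes the populations were apart. Iars2 was lower by less, with 78 and 60 against 42 and 68 counts that overlapped (log2 fold change -0.23, adjusted p = 0.744). The remaining mitochondrial synthetases had mean levels under 50 CPM, from 45.9 CPM for Hars2 down to 4.46 CPM for Pars2, at which differences of the size seen in the cytosolic enzymes were not detectable. The exons of Hars2 share 195 bases with Hars on the opposite strand, and those of Mars1 share 68 bases with Ddit3. Reads of such pairs can be told apart only if strand was used in counting, which the sources used here do not state.

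**Figure D4:**
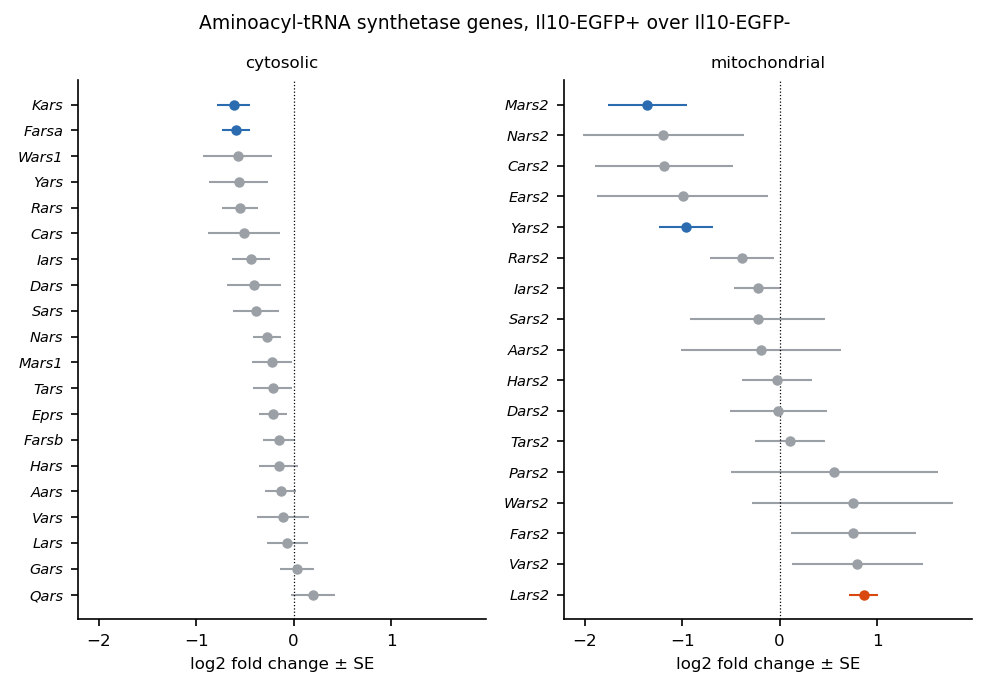
Log2 fold change with its standard error (x axis, Il10-EGFP+ over Il10-EGFP-) of the 20 cytosolic (left) and 17 mitochondrial (right) synthetase genes (y axis), with genes called lower in blue and Lars2, called higher, in orange. The cytosolic genes lie in a narrow band from -0.62 to 0.20, whereas the mitochondrial genes have wider errors and extend from -1.36 to 0.86.

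**Figure D5:**
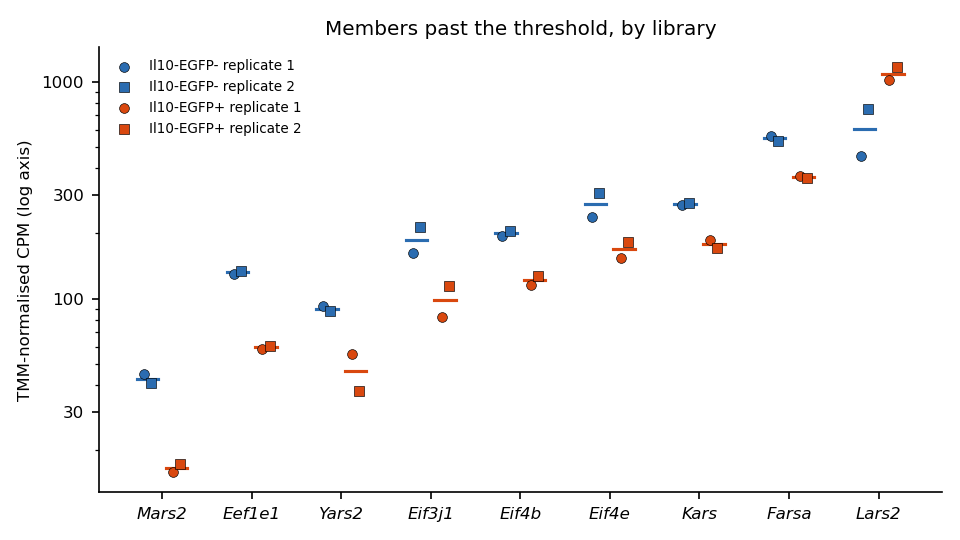
Level of the 9 genes past the threshold (x axis, ordered by log2 fold change) in each library (y axis, TMM-normalised CPM, log axis), with Il10-EGFP- in blue, Il10-EGFP+ in orange, circles for replicate 1, squares for replicate 2 and lines at the means. In each gene the points of the populations do not overlap, and in Lars2 alone the Il10-EGFP+ points are the higher ones.

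Genes that work beside these factors but bear other names were listed as well. Of 28 tested cytosolic partners, which include the poly(A)-binding proteins, recycling factors and the enzymes that modify eEF2 and eIF5A, 20 were below 0 (median -0.12) and 1 was called. That share, 3.57%, was near the 4.09% called over all genes tested. The called gene was Dph3, needed for the diphthamide modification of eEF2, with 121 and 94 counts against 62 and 54 (log2 fold change -0.78, SE 0.21, edgeR adjusted p = 0.0224). Pabpc1, the abundant poly(A)-binding protein gene, had a log2 fold change of -0.14 (SE 0.11, adjusted p = 0.624). The 13 mitochondrial translation factor genes had a median of -0.10 with 9 below 0 and 0 calls by edgeR, and 2 of them had an unadjusted p under 0.05. Of 18 kinases and signals upstream of translation, 8 were below 0 (median 0.03) and 1 was called, Myc, the transcription factor that drives growth in activated T cells. Myc had 27 and 19 counts against 7 and 7 (log2 fold change -1.59, SE 0.49, edgeR adjusted p = 0.0465). This call rests on few counts, and 1 of 18 (5.56%) was also near the share of all genes. The eIF2 kinase gene Eif2ak2 (log2 fold change 0.53, SE 0.23, adjusted p = 0.239) and Mtor (0.05, SE 0.26, adjusted p = 0.975) did not pass the test.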

How the data were processed

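RNA of sorted splenic CD4+ T cells was sequenced with a 3′ kit (QuantSeq FWD), 2 libraries a population. According to the methods and the submitters' processing notes, the authors aligned reads to GRCm38 (mm10) with the BlueBee QuantSeq FWD pipeline (the notes name STAR 2.5.2a) and made counts per gene with HTSeq-count 0.6.0. They set aside 1 further replicate pair as an outlier, which was not analysed here. The deposited count table holds these raw counts. The deposited rlog table holds log2 values that the authors made with DESeq2 after dropping genes under 10 counts, and DESeq2 run here gave the same values. The annotation release, the strand setting and whether molecular identifiers were collapsed in the counts are not given in the sources used here. The labels and the methods name different RNA extraction kits.

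Genes whose counts summed to 10 or more were fitted with edgeR 4.0.16 in R 4.3.3 (TMM, quasi-likelihood test, population as the only term), with Benjamini-Hochberg adjustment over all 9608 genes and a threshold of 0.05. Members were counted in that fit, and no test was run over the members as a set. Values are TMM-normalised CPM with SD over 2 libraries. By the design text the replicates are separate mice. Alternatives used DESeq2 1.42.0, limma 3.58.1 (voom and rlog), other scalings, filters and thresholds, a replicate block and each library left out. In simulated counts for this comparison, with 9608 genes, the edgeR test recovered 48.8% of changed genes averaging 50 counts or more at a log2 change of 0.75 and 90% at a change of 1. With no gene changed it called 0. No 2 libraries agreed within sampling noise (chi-square over degrees of freedom 1.96 or more).

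Coordinates and overlaps come from GENCODE M21 on GRCm38, and promoter windows from RefSeq (GRCm38.p6), where a search by symbol or synonym gave one for 74 of the 96 members. For Hars2 and Eif3j2, genes of chromosome 18, the window found lies on chromosome 2, and that of Eif3j2 is the window of Eif3j1. The counts of members with a window include both. The promoter match of 1 member is not reported here. The members, gene lists and roles were chosen with earlier results of these data known, and eIF4F, eIF2B and the multisynthetase complex were listed after their values had been seen. Genes were named where they passed the threshold, were among the 2 most abundant of a role, were among the 3 largest changes in each direction short of the threshold (averaging 10 counts or more), or were regulators that the naming rule lists. The other named genes (such as Eif4a3, Eif4h, Rars, Farsb, Eif2b4, Eif3j2, the genes with promoter matches, Dohh, Dhps, Atf4, Pabpc1, Eif2ak2 and Mtor) were added after their values were seen.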

Additional observations from a re-analysis of the deposited data

How the results depend on the processing

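The 9 called members kept their sign in all fits tried. DESeq2 kept 2 of the 9 calls (Eef1e1 and Farsa, with 17 members without an adjusted p), limma on rlog values kept 4 (Eef1e1, Eif4b, Farsa and Kars), and limma voom, RLE or library size scaling, both other filters, bias-adjusted deviances and removal of the 3 genes with most counts kept all 9. The cause of these differences was not tested.

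Over all genes, 393 were called by edgeR, 112 by DESeq2 (71 higher, 41 lower), 197 by limma on rlog values (104 and 93), 177 at a threshold of 0.01 (114 and 63), 622 at 0.1 (345 and 277), and 201 to 264 without 1 library. With library size scaling 190 of 367 were higher. Initiation genes gave 3 calls, against 0 with DESeq2 (12 of the 96 members had an unadjusted p under 0.05 there), 1 with rlog values, 1 at 0.01 and 0 to 2 without 1 library (17 to 24 of the 96 at an unadjusted p under 0.05). Elongation and termination genes gave 1, against 2 with voom, with library size scaling, with the replicate block and at 0.1, and 1 to 2 without 1 library. Synthetases gave 5, against 1 with DESeq2, 2 with rlog values, 2 at 0.01 and 1 to 2 without 1 library.

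The replicate numbers were not shown to pair the libraries (r = 0.0153 over 6781 genes between the differences of replicate 1 and 2 in the populations). A replicate block called 560 genes and 12 members, adding Eif5a, Eif4a3 and Rars.

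Members near 0 or of few counts changed sign, and none of them was called in any fit. Eef2k was at 0.0042 with DESeq2, 0.0002 with rlog values and 0.017 with the block, and Eif5 at -0.0126 with library size scaling. With 1 library left out, log2 fold changes ranged from -0.1418 to 0.007 for Eef1a1, -0.1668 to 0.0896 for Eef1b2, -1.2216 to 1.1811 for Eef2k, -0.7909 to 0.4767 for Eef2kmt, -0.3388 to 0.0581 for Eif2s1, -0.2004 to 0.04 for Eif2s2, -0.2728 to 0.0148 for Eif3c, -1.5932 to 0.3582 for Eif4ebp1, -0.1481 to 0.0233 for Eif4g2, -0.0475 to 0.078 for Eif5, -0.5056 to 0.0757 for Gspt1 and -0.5408 to 0.0203 for Iars2.

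With 2 libraries a population and at most 730330 counts each, changes under 2-fold in genes of few counts could not be detected reliably. In the simulation, 35.5% of genes with a log2 change of 1 were recovered over all levels.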
